A study of Homo sapiens with 42 samples.

Results

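The genes described here encode the human aminoacyl-tRNA synthetases, the enzymes that charge tRNAs, and the 3 proteins that hold several of these enzymes together. They were picked as a gene family, by name and with earlier results of these data known: 20 cytosolic enzymes (written without a final digit, such as AARS), 16 mitochondrial enzymes (names ending in 2, such as MARS2) and the scaffold proteins AIMP1, AIMP2 and EEF1E1. All 39 names were found among the 57353 gene names of the counts table. All 39 also passed the filter on low counts (a mean of at least 1 count and of at least 1 CPM, counts scaled to a common library size, over the libraries), which kept 12939 genes.

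Most synthetases join a single kind of amino acid to its tRNAs, so the set as a whole supplies the ribosome with building blocks. Mitochondria use a largely separate set of enzymes, encoded in the nucleus, for their own ribosomes. KARS and GARS serve both compartments and are counted here as cytosolic. In the cytosol, EPRS, IARS, LARS, MARS, QARS, KARS, RARS and DARS assemble with AIMP1, AIMP2 and EEF1E1 into the multisynthetase complex, while the other cytosolic enzymes act outside it. When uncharged tRNAs build up, the kinase GCN2 slows general translation and raises the transcription factor ATF4, which is known to induce many cytosolic synthetase genes. mTORC1 also promotes ATF4 synthesis, and MYC is known to bind E-box elements in promoters of genes that serve growth.

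All libraries were made from MOLM-13, a line of human acute myeloid leukemia cells whose FLT3 receptor kinase is kept active by an internal tandem duplication, with the genotype given as WT in every group. Cells were treated for 12 hours in RPMI or in hBMSC-CM, which is RPMI mixed with medium conditioned by HS-5, an immortalized human bone marrow stromal line. In RPMI the groups were vehicle, quizartinib (AC220, an inhibitor of FLT3, 3 nM) and quizartinib plus everolimus (combo), and the hBMSC-CM groups added everolimus alone (an inhibitor of mTORC1, 10 nM) to these 3. Each of the 7 groups had 3 cultures, numbered 1 to 3, and each culture gave poly(A) RNA of the whole lysate (input) and of heavy polysomes, the messages loaded with many ribosomes, after cycloheximide had been added to hold ribosomes in place. Everolimus by itself was not analyzed in RPMI here. The study describes its replicates as biological and set RNA yields against RPMI vehicle within each replicate, so a number may mark cultures run together, although no label says so. The tests below do not use the number. Where a fit with the number as a block (1 block for both fractions, or 1 within each fraction) changes the calls, its count is given beside the result. Shares of all tested genes called come from the edgeR fit without the number, so counts from a block or another method have no such share. No share of all tested genes is given either for counts by unadjusted p or for groups that did not overlap.

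Total counts were 19.4 M to 38.8 M per library. Markers of myeloid leukemia cells were present in every library, with SPI1 at 265 CPM or more, and T cell, B cell and erythroid markers did not exceed 4.83 CPM. Of 10 stromal markers, 4 to 6 were at 0 in every library of a group, COL3A1, LUM and POSTN among them. The summed level of the 10 was higher under quizartinib, at 9.22 to 41.4 CPM in RPMI input against 0.909 to 4.6 CPM with vehicle and at 5.63 to 23.7 CPM in hBMSC-CM input against 0.806 to 2.94 CPM. COL1A1, at 0 to 38.8 CPM, was the stromal gene that passed the filter and was higher under quizartinib (log2 change 4.43 in RPMI and 4.24 in hBMSC-CM). The part of this list in the results below was not tested.

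Levels per coding length ranged widely among the members. In RPMI with vehicle, FARSA, the catalytic subunit of the cytosolic phenylalanine enzyme, stood at 276 ± 43.4 CPM per kilobase of coding sequence (SD, n = 3 cultures), and its lowest culture (226) lay above the highest culture of YARS, the tyrosine enzyme, at 174.6. YARS (173 ± 3.34) and KARS, the lysine enzyme of both compartments (168 ± 14.3), overlapped and were followed by VARS, the valine enzyme (147 ± 8.85), and QARS, the glutamine enzyme (142 ± 12.1). FARSB, which encodes the partner subunit of FARSA, was at 70.3 ± 1.85 CPM per kilobase. The median was 79.8 CPM per kilobase over the 20 cytosolic enzymes and 17.1 over the 16 mitochondrial enzymes, where CARS2 was highest (75.7 ± 7.25) and PARS2 (4.74 ± 0.514) and SARS2 (1.83 ± 0.279) were lowest. Among the scaffold genes, AIMP2 (113 ± 11.4) and AIMP1 (89.5 ± 11.7) overlapped in range, and EEF1E1 was lower at 22.1 ± 2.53. Reads also cover untranslated parts. The transcripts of AIMP2 and AIMP1 have 1198 and 2773 bases, for coding lengths of 960 and 936 bases. The order of the members therefore holds per coding length only.

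Because ATF4 and MYC are linked to known DNA elements, the promoters of the members were searched for them, with the expression changes already known. RefSeq promoters on GRCh38.p14, from 250 bases before to 50 bases after each start, were found for 33 of 39 members. DARS, LARS, VARS, YARS, AARS2 and VARS2 had no entry. The amino acid response element, to which ATF4 binds with a C/EBP partner, was searched on both strands as TGATGNAAN, where N is any base. It was present in 7 of 16 cytosolic promoters (43.8%), in 1 of 14 mitochondrial promoters (7.14%) and in 0 of 3 scaffold promoters, against 4.45% of the promoters of 27305 genes searched in the same way. The sites are shown with 10 bases on either side, on the strand that spells the element as searched, with the element in capitals.
AARS (chr16:70289676-70289704, plus strand): ctaacttggcTGATGCAACtgcgagaaaa
CARS (chr11:3057408-3057436, plus strand): tcctagaatcTGATGCAACcgccgccccg
GARS (chr7:30594834-30594862, minus strand): gctcggagcaTGATGAAATcgccgcgtaa
IARS (chr9:92293693-92293721, plus strand): cgcacggaggTGATGCAACgcgctgaaaa
MARS (chr12:57488053-57488081, minus strand): aatccctcgcTGATGCAACcggaaccggc
NARS (chr18:57621804-57621832, minus strand): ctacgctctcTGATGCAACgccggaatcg
TARS (chr5:33440956-33440984, minus strand): ctggaccagcTGATGCAATcgaaaggcgc
YARS2 (chr12:32756076-32756104, minus strand): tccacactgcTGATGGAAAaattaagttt
In AARS, CARS, IARS, MARS and NARS the 9 bases were the same, but the search had fixed all bases except those marked N. The sites of AARS, GARS, IARS and YARS2 lay before the start, and those of CARS, MARS, NARS and TARS lay across or after it.

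The E-box CACGTG, which reads the same on both strands and to which MYC can bind, was found in 5 of 33 members (15.2%) against 8.77% of all promoters searched. It lay in the promoters of the scaffold gene AIMP2, of the mitochondrial genes MARS2, EARS2 and CARS2, and of the cytosolic gene IARS, where it did not overlap the response element shown above. These sites are shown in the same way because 3 of the 5 genes recur among the largest changes below.
AIMP2 (chr7:6009480-6009505, plus strand): gggcgctggcCACGTGcaggtaggag
MARS2 (chr2:197705348-197705373, plus strand): gcgcctctcaCACGTGctgtcagaac
EARS2 (chr16:23557350-23557375, minus strand): gggagaagccCACGTGtgctattcca
CARS2 (chr13:110706503-110706528, minus strand): ctgggatgcaCACGTGcttcgctaac
IARS (chr9:92293868-92293893, minus strand): gttcgttttcCACGTGgaggcgcaaa
A match says only that these letters are present. The CCAAT box, searched as CCAAT on both strands, was found in 19 of 33 members (57.6%) and in 39.7% of all promoters.

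Quizartinib against vehicle in RPMI asked how FLT3 inhibition changed the members in input RNA without stromal factors. The synthetase messages fell broadly. Of 39 members, 25 were lower and 0 were higher at an adjusted p under 0.05 (edgeR quasi-likelihood test), where 34.6% of all tested genes were called and 18% were called lower. The lower members were 15 of 20 cytosolic enzymes (median log2 change -1.21), 8 of 16 mitochondrial enzymes (median -0.69) and 2 of 3 scaffold genes, whereas the median over all tested genes was 0.08. The replicate block called 29 lower, with EPRS, DARS, SARS and IARS2 added, and the block within fraction called 30 lower, with AIMP1 added as well. The summed level of the 20 cytosolic enzymes was 4174 ± 72.9 CPM with vehicle and 1856 ± 162.5 CPM with quizartinib, and that of the 16 mitochondrial enzymes was 669 ± 19.6 and 422 ± 15.3 CPM (SD, n = 3). CPM are shares of a library, so a lower level in every cell and fewer cells with the message cannot be told apart in this bulk RNA.

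**Figure D1:**
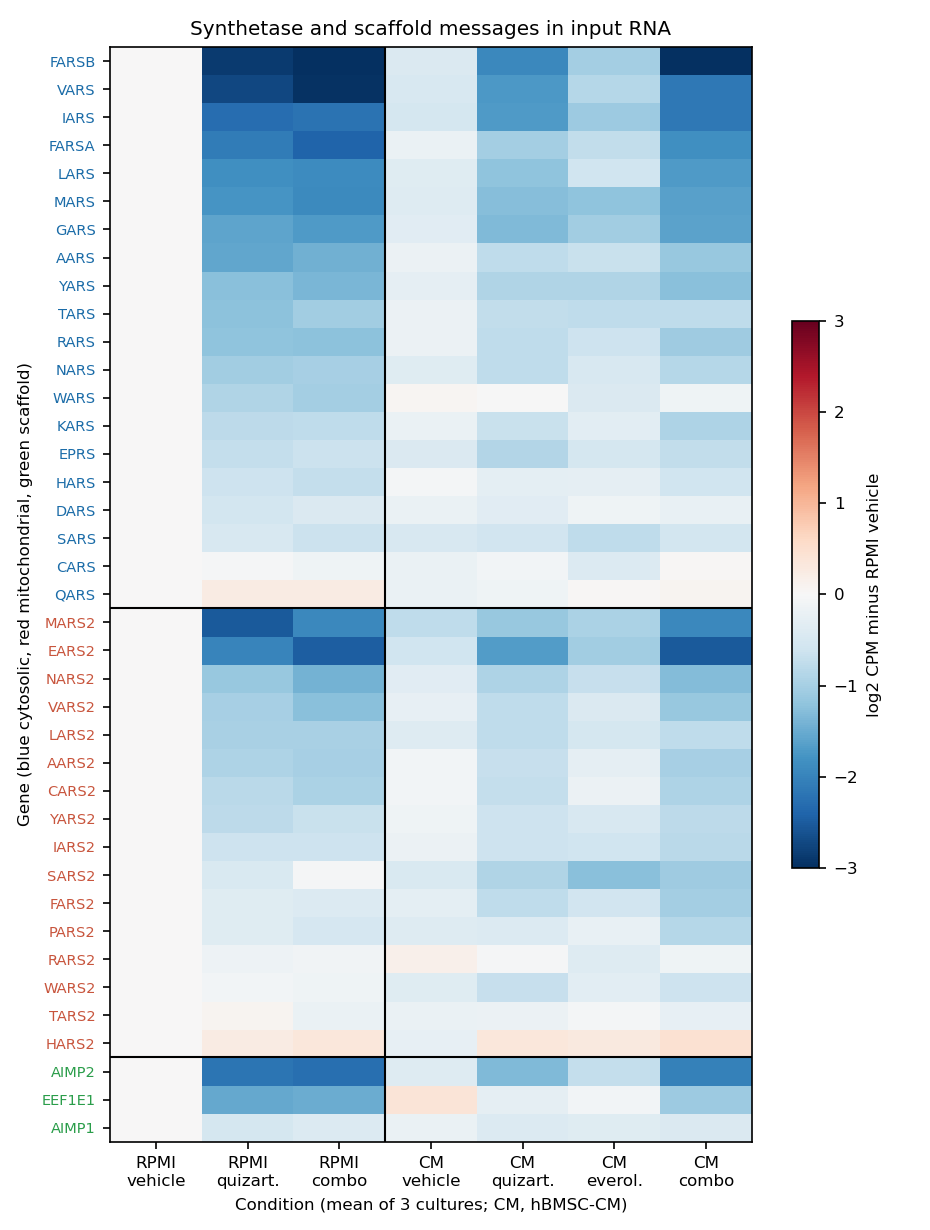
Heat map of the 39 members (rows, sorted within cytosolic, mitochondrial and scaffold genes by their value under quizartinib in RPMI) in input RNA of the 7 groups (columns). Color is the mean log2 CPM of 3 cultures minus that of RPMI vehicle, and values below -3 share the darkest blue. Most rows are blue under quizartinib and combo in RPMI and paler under quizartinib in hBMSC-CM, with QARS and HARS2 slightly red.

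The scaffold gene AIMP2, on chromosome 7 (GRCh38, 6009255 to 6023834), showed the smallest adjusted p. Its level was 96.8, 111 and 118 CPM in cultures 1 to 3 with vehicle and 27.4, 21.6 and 22.2 CPM with quizartinib, so the groups lay far apart (4.58-fold lower, log2 change -2.2, SE 0.20, adjusted p = 1.35e-10). EEF1E1, the smallest scaffold protein, was at 11.2, 10.4 and 13 CPM and fell to 2.63, 4.88 and 4.72 CPM (log2 change -1.5, SE 0.41, adjusted p = 0.0045). AIMP1, the third scaffold protein and the precursor of a secreted cytokine, was at 74.9, 96.1 and 80.4 CPM and at 46.9, 59.3 and 69.3 CPM (log2 change -0.52, SE 0.27, adjusted p = 0.141). Its groups did not overlap, but it did not pass the test.

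Both subunits of the phenylalanine enzyme fell together. FARSB (chromosome 2, 222566899 to 222656092) was at 122, 123 and 128 CPM with vehicle and at 17.7, 16.5 and 16.4 CPM with quizartinib, a 7.37-fold difference (log2 change -2.88, SE 0.29, adjusted p = 8.1e-10). FARSA (chromosome 19, 12922479 to 12934037) was at 344, 455 and 462 CPM and at 89.4, 110.0 and 95.2 CPM, a 4.28-fold difference (log2 change -2.1, SE 0.22, adjusted p = 3.01e-09). VARS (chromosome 6, 31777518 to 31795752), which charges valine tRNA and works outside the multisynthetase complex, was at 526, 557 and 593 CPM and at 89.6, 92.1 and 72.1 CPM (6.6-fold, log2 change -2.72, SE 0.29, adjusted p = 3.18e-09). In these 3 genes the highest quizartinib culture was below the lowest vehicle culture by a wide margin.

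Enzymes inside and outside the complex were both among those that fell. Of the 8 enzymes of the multisynthetase complex, 5 were lower (median log2 change -0.99): IARS, the isoleucine enzyme (-2.25, SE 0.29), LARS, the leucine enzyme that also signals leucine to mTORC1 (-1.84, SE 0.28), MARS, the methionine enzyme (-1.78, SE 0.27), RARS, the arginine enzyme (-1.2, SE 0.19), and KARS (-0.78, SE 0.16). KARS was at 281, 290.2 and 329 CPM with vehicle and at 182, 159.6 and 182 CPM with quizartinib, with no overlap. EPRS, which charges both glutamate and proline tRNA, was at 249, 209 and 226 CPM and at 171, 132 and 120.1 CPM and did not pass the test (log2 change -0.69, SE 0.28, adjusted p = 0.0555), nor did DARS (-0.56, adjusted p = 0.0686). QARS stood apart from the rest of the complex, with 353, 299 and 338 CPM under vehicle and 496, 354 and 345 CPM under quizartinib, groups that overlapped (log2 change 0.27, SE 0.24, adjusted p = 0.399).

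Both structural classes of cytosolic enzymes held genes that fell, with 7 of 10 class I enzymes lower (median log2 change -1.23) and 8 of 10 class II enzymes lower (median -1.12). Outside the complex, YARS (-1.25), GARS, the glycine enzyme of both compartments (-1.58), AARS, the alanine enzyme (-1.51), TARS, the threonine enzyme (-1.21), NARS, the asparagine enzyme (-1.03), WARS, the tryptophan enzyme (-0.89), and HARS, the histidine enzyme (-0.61), were lower, all on the log2 scale. AARS was at 176, 175 and 179.7 CPM with vehicle and at 65, 79.3 and 41.9 CPM with quizartinib (log2 change -1.51, SE 0.34, adjusted p = 0.000683). WARS was at 127, 135 and 117 CPM and at 64.4, 82.7 and 57.4 CPM (log2 change -0.89, SE 0.21, adjusted p = 0.00129). Neither gene's groups overlapped. CARS, the cysteine enzyme, and SARS, the serine enzyme, did not pass the test, with log2 changes of -0.04 and -0.46.

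Among mitochondrial enzymes, MARS2, which charges the mitochondrial methionine tRNA (chromosome 2, 197705369 to 197708395), was at 16.7, 24.7 and 17.8 CPM with vehicle and at 3.59, 5.26 and 1.94 CPM with quizartinib (5.48-fold, log2 change -2.45, SE 0.32, adjusted p = 2.24e-07). EARS2, the mitochondrial glutamate enzyme, was at 38.1, 48.3 and 35.9 CPM and at 10.2, 11.5 and 8.95 CPM (4-fold, log2 change -2.0, SE 0.28, adjusted p = 5.16e-07). In both genes the groups lay apart. NARS2, LARS2, CARS2, AARS2, VARS2 and YARS2 were lower by less, with log2 changes between -1.12 for NARS2 and -0.76 for YARS2. The call of YARS2 (adjusted p = 0.0213) was lost with library size scaling and without any of 4 of the 6 cultures (adjusted p of up to 0.103). IARS2 did not pass the test (-0.61, adjusted p = 0.0526), and FARS2, PARS2, RARS2, SARS2, WARS2, TARS2 and HARS2 lay between -0.44 and 0.25. The mean log2 level of the cytosolic enzymes exceeded that of the mitochondrial enzymes by 2.58 ± 0.01 with vehicle and by 2.05 ± 0.07 with quizartinib (SD, n = 3).

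HARS and HARS2 are neighbors that are read in opposite directions from a shared start region on chromosome 5 (140673035 to 140691537 and 140691430 to 140699305), and they did not move together. HARS was at 91.5, 95.4 and 93.4 CPM with vehicle and at 62.7, 58.3 and 62.2 CPM with quizartinib (log2 change -0.61, SE 0.13, adjusted p = 0.000236), while HARS2 was at 23.1, 26.4 and 31.8 CPM and at 28.7, 32.8 and 35.2 CPM, groups that overlapped (log2 change 0.25, SE 0.17, adjusted p = 0.28). The exons of HARS overlap those of HARS2 on the other strand, and overlaps of this kind are annotated for 21 of the 39 members, among them AARS, FARSA, KARS, WARS, YARS, AIMP1, AIMP2, EARS2 and MARS, whose neighbor DDIT3 is itself a stress response gene. FARSB, VARS, MARS2, EPRS and IARS have none. Whether counting used strand is not given in the sources used here, so reads in these overlaps cannot be assigned with certainty.

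Read against the promoter sites shown above, 6 of the 7 cytosolic genes with the amino acid response element were lower (median log2 change -1.51), CARS being the exception, and 6 of the 9 cytosolic genes without it were lower (median -0.78). All 5 genes with an E-box were lower (median log2 change -2.2), as were 15 of the 28 members without it (median -0.73). These elements and members were set side by side with the results already known, so the counts are descriptions with no test.

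Other genes of tRNA charging and amino acid supply gave a mixed picture. Of 14 tested genes that serve charging without being members, 7 were lower and 2 were higher. They included XPOT, the exporter of tRNAs from the nucleus (log2 change -1.51, SE 0.23, adjusted p = 3e-06). Of 4 carriers of charged tRNA, 1 was lower, the mitochondrial elongation factor TUFM (log2 change -1.1, SE 0.24, adjusted p = 0.000465), while EEF1A1, its cytosolic counterpart, was at 0.20 (adjusted p = 0.592). Of 23 tested genes of the amino acid stress response, 9 were lower and 3 were higher, led by the amino acid transporter SLC7A5 (log2 change -4.0, SE 0.27, adjusted p = 1.47e-13), PSAT1, an enzyme of serine synthesis (log2 change -2.85, SE 0.31, adjusted p = 5.53e-09), and TRIB3, a pseudokinase induced by ATF4 (log2 change -2.14, SE 0.28, adjusted p = 2.07e-07).

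In hBMSC-CM, the same comparison gave smaller falls and fewer calls. Of 39 members, 14 were lower and 1 was higher, where 12.3% of all tested genes were called, 6.84% lower and 5.46% higher. The lower members were 10 cytosolic enzymes (median log2 change over the 20 of -0.57), 3 mitochondrial enzymes (median over the 16 of -0.47) and 1 scaffold gene, and the median over all tested genes was 0.01. The replicate block gave 15 lower and 1 higher, and the block within fraction gave 21 lower, AARS among them, and 1 higher. The summed cytosolic level was 3418 ± 67.8 CPM with vehicle and 2288 ± 8.35 CPM with quizartinib, and the summed mitochondrial level was 586 ± 16.7 and 441 ± 12.7 CPM. The count of calls depended on single cultures: it was 7 without culture 1 of quizartinib, 9 without its culture 2 and 8 without culture 3 of vehicle.

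FARSB was at 88.7, 85.6 and 103 CPM with vehicle and at 27.3, 31 and 40.9 CPM with quizartinib (2.79-fold, log2 change -1.48, SE 0.27, adjusted p = 0.000416). AIMP2 was at 78.2, 77.2 and 92.7 CPM and at 39.4, 39.1 and 51.3 CPM (1.91-fold, log2 change -0.93, SE 0.19, adjusted p = 0.0013). GARS was at 189, 181 and 220.4 CPM and at 102, 99.5 and 97.1 CPM (1.98-fold, log2 change -0.98, SE 0.21, adjusted p = 0.00181). The groups lay apart in all 3 genes. VARS, IARS, YARS, FARSA, MARS, RARS, LARS and KARS were also lower, with log2 changes from -1.22 for VARS to -0.48 for KARS. WARS was not: it was at 132, 153 and 113 CPM with vehicle and at 127, 157 and 101 CPM with quizartinib, with overlapping groups (log2 change -0.05, SE 0.21, adjusted p = 0.903). AARS (-0.57, adjusted p = 0.281), EPRS (-0.45, adjusted p = 0.321), QARS (0.07), AIMP1 (-0.23) and EEF1E1 (-0.64) did not pass the test either.

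Among members that did not pass, AARS was at 154, 162 and 152 CPM with vehicle and at 89.3, 118 and 107 CPM with quizartinib, and EPRS was at 196, 155 and 160.4 CPM and at 153, 111 and 111 CPM, so neither gene's groups overlapped. KARS, which did pass, was at 243, 240.2 and 309 CPM and at 176, 178 and 213 CPM (log2 change -0.48, SE 0.16, adjusted p = 0.0398). QARS was at 316, 259.8 and 288 CPM with vehicle and at 367, 273 and 267 CPM with quizartinib, and its groups overlapped. Of the scaffold genes, EEF1E1 was at 14.7, 12.7 and 18 CPM and at 7.1, 9.4 and 12.7 CPM (adjusted p = 0.324) and AIMP1 was at 65, 84.1 and 71.4 CPM and at 53, 66.1 and 69.2 CPM (adjusted p = 0.642).

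Of the mitochondrial enzymes, EARS2 was at 27.8, 30.1 and 22.7 CPM with vehicle and at 12.2, 13.8 and 12 CPM with quizartinib (log2 change -1.09, SE 0.27, adjusted p = 0.00675), and NARS2 was lower as well (log2 change -0.59, SE 0.20, adjusted p = 0.0417). CARS2, the mitochondrial cysteine enzyme, was at 95.7, 105 and 174 CPM and at 62.4, 72.9 and 106 CPM; it passed the test although its groups overlapped, since culture 3 was highest in both (log2 change -0.64, SE 0.19, adjusted p = 0.0265). HARS2 was higher, at 20.1, 27.2 and 21.7 CPM with vehicle and 37.4, 32.1 and 32.8 CPM with quizartinib (log2 change 0.57, SE 0.17, adjusted p = 0.0289). The calls of HARS2, CARS2 and NARS2 were lost when single cultures were left out (adjusted p of up to 0.126, 0.326 and 0.18), for CARS2 most of all without culture 3 of vehicle. MARS2, so much lower in RPMI, was at 15, 13.6 and 7.3 CPM and at 8.67, 12.4 and 6.47 CPM here, with overlapping groups (log2 change -0.38, SE 0.31, adjusted p = 0.465). Beyond the members, 2 of the 14 other charging genes were lower (XPOT and QRSL1), as was TUFM, and of the 23 stress response genes 5 were lower and 1, CEBPB, was higher.

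**Figure D2:**
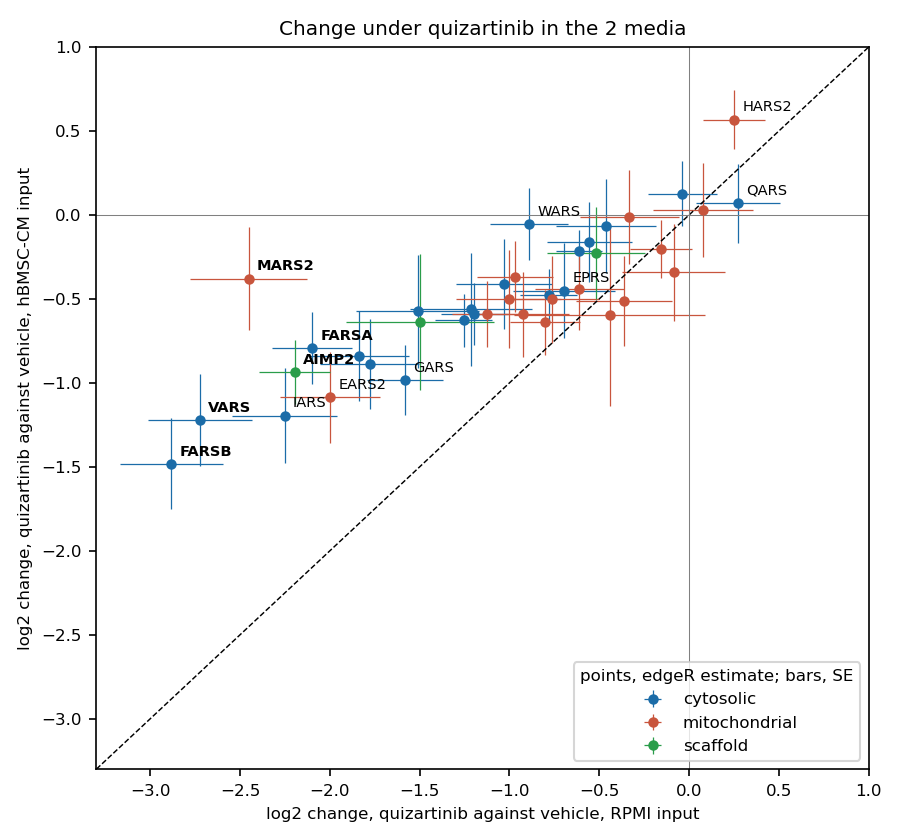
Change of each of the 39 members under quizartinib in RPMI input (horizontal axis, log2) against the change in hBMSC-CM input (vertical axis, log2), with bars for 1 SE, colors for the 3 kinds of gene and a dashed line where the changes are equal. Most points lie above the line, and MARS2 lies farthest from it, at -2.45 in RPMI and -0.38 in hBMSC-CM. Names in bold mark the 5 members called in the test of the difference.

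The difference between media was tested directly as the quizartinib effect in hBMSC-CM minus that in RPMI. It uses the same cultures as both comparisons above, and the quizartinib cultures in hBMSC-CM also enter the comparisons with RPMI and with the combo below. Of 39 members, 5 were called, all with a weaker fall in hBMSC-CM, where 1.96% of all tested genes were called and 1.79% in this direction. The median difference was 0.50 on the log2 scale over the members and -0.04 over all tested genes, and 33 of 39 differences were above 0. It combines lower vehicle levels in hBMSC-CM than in RPMI (median -0.25 over the members) with higher levels under quizartinib (median 0.24). For MARS2 these 2 parts were -0.72 and 1.35. The 5 members were MARS2 (2.07, SE 0.44, adjusted p = 0.00572), AIMP2 (1.26, SE 0.27, adjusted p = 0.00632), FARSA (1.3, SE 0.30, adjusted p = 0.0121), VARS (1.5, SE 0.38, adjusted p = 0.028) and FARSB (1.4, SE 0.38, adjusted p = 0.0408). In each of them the difference had this sign in 3 of 3 sets of cultures with the same number. The same cultures gave the calls, and uncalled members such as EPRS (0.24, adjusted p = 0.971) and IARS2 (0.17, adjusted p = 0.986) also had 3 of 3. MARS2, AIMP2 and FARSA kept their calls under every alternative that tested them, whereas FARSB lost its call under 12 of 20 alternatives and VARS under 4 of 20. With the replicate block 8 members were called, WARS, IARS and EARS2 being added, and with the block within fraction 12 were called, all in the same direction.

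Members with the next smallest p were YARS (0.63, adjusted p = 0.189), WARS (0.84, adjusted p = 0.207) and IARS (1.06, adjusted p = 0.242), which did not pass. Of the genes with an amino acid response element, 0 of 8 were called (median difference 0.635), and of those without it 4 of 25 (median 0.321). Of the genes with an E-box 2 of 5 were called (median 1.06), and of those without it 2 of 28 (median 0.358). Neither FARSA nor FARSB had either element, and VARS had no promoter entry. Of the other lists, the transporter SLC7A5 alone was called (log2 change 2.74, SE 0.34, adjusted p = 3.62e-06).

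Without drug, no member passed the test between media. The comparison of hBMSC-CM with RPMI under vehicle called 0 of 39 members by edgeR, limma voom or DESeq2, where 1.51% of all tested genes were called, and 3 members had an unadjusted p under 0.05. The replicate block also gave 0 calls, and the block within fraction gave 1, EARS2. Still, 36 of 39 changes were negative and the median was -0.25, against -0.01 over all tested genes. The smallest p belonged to MARS2 (log2 change -0.72, SE 0.31, adjusted p = 0.457), followed by EARS2 (-0.60) and AIMP2 (-0.39). The summed cytosolic level was 4174 ± 72.9 CPM in RPMI and 3418 ± 67.8 CPM in hBMSC-CM, and the difference between cytosolic and mitochondrial means was 2.58 ± 0.01 and 2.59 ± 0.02 on the log2 scale. WARS, at 127, 135 and 117 CPM in RPMI and 132, 153 and 113 CPM in hBMSC-CM, overlapped. Of the stress response genes, DDIT4, CEBPB and SLC7A11 were higher in hBMSC-CM.

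Under quizartinib, 6 members were higher in hBMSC-CM than in RPMI and 0 were lower, where 8.16% of all tested genes were called and 6.11% were called higher. These 6 were FARSA, AIMP2, MARS2, WARS, VARS and FARSB. The replicate block gave 7 higher and 0 lower, with EEF1E1 added, and the block within fraction gave 14 higher and 1 lower, the latter WARS2, the mitochondrial tryptophan enzyme. FARSA was at 89.4, 110.0 and 95.2 CPM in RPMI and at 172, 219 and 236 CPM in hBMSC-CM (2.13-fold, log2 change 1.09, SE 0.22, adjusted p = 0.000587). AIMP2 was at 27.4, 21.6 and 22.2 CPM and at 39.4, 39.1 and 51.3 CPM (1.82-fold, log2 change 0.87, SE 0.19, adjusted p = 0.00222). Both genes thus stood higher in every hBMSC-CM culture than in any RPMI culture.

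WARS, which is also induced by interferon, was at 64.4, 82.7 and 57.4 CPM in RPMI and at 127, 157 and 101 CPM in hBMSC-CM (1.88-fold, log2 change 0.91, SE 0.21, adjusted p = 0.00419), and MARS2 was at 3.59, 5.26 and 1.94 CPM and at 8.67, 12.4 and 6.47 CPM (2.55-fold, log2 change 1.35, SE 0.32, adjusted p = 0.00373). The groups of both genes lay apart. MARS2 lost its call when the fit held only these groups (adjusted p = 0.0633). VARS had a mean of 84.6 ± 10.9 CPM (SD, n = 3) in RPMI and was at 163, 158 and 190.1 CPM in hBMSC-CM. It was called with all cultures (log2 change 1.01, SE 0.27, adjusted p = 0.014), as was FARSB (log2 change 0.97, SE 0.27, adjusted p = 0.017). VARS lost its call without culture 3 of quizartinib in hBMSC-CM or in RPMI (adjusted p = 0.0722 and 0.0529), and FARSB without culture 3 in hBMSC-CM or any RPMI quizartinib culture (adjusted p of up to 0.0596). EEF1E1, at 2.63, 4.88 and 4.72 CPM and 7.1, 9.4 and 12.7 CPM, did not pass the test (log2 change 1.25, SE 0.41, adjusted p = 0.0533). The median over the 20 cytosolic enzymes was 0.39, over the 16 mitochondrial enzymes 0.11 and over all tested genes -0.03. AARS (0.76, adjusted p = 0.207), EPRS (-0.18), KARS (0.12), QARS (-0.40) and AIMP1 (0.10) were not called. Of the other charging genes PSTK, a kinase of selenocysteine tRNA, was lower, and of the stress response genes SLC7A5, DDIT4 and CEBPB were higher.

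**Figure D3:**
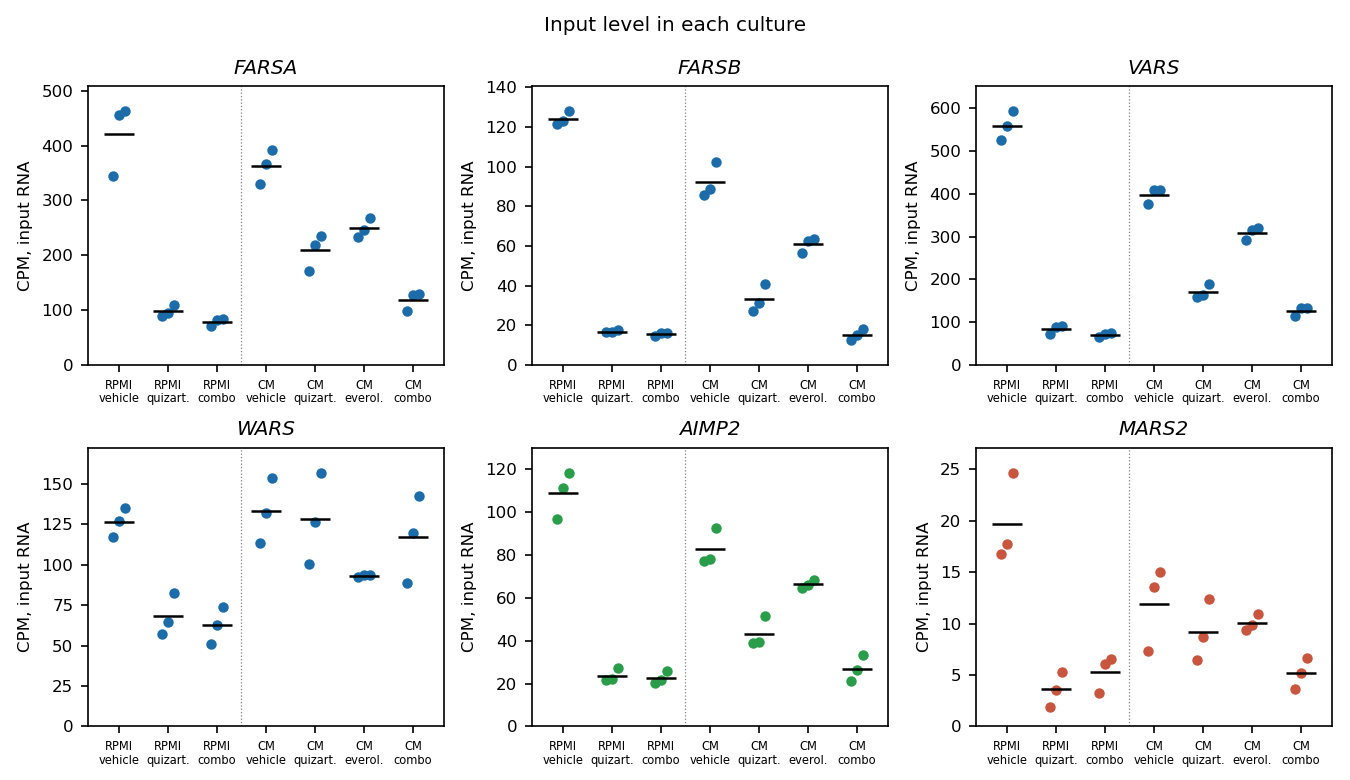
Input level (CPM, vertical axes from 0) of FARSA, FARSB, VARS, WARS, AIMP2 and MARS2 in each culture (points) of the 7 groups, with bars at the group means (CM, hBMSC-CM). For FARSA, FARSB, VARS, AIMP2 and MARS2 every RPMI quizartinib culture lies below every hBMSC-CM quizartinib culture, and the combo cultures in hBMSC-CM lie below or overlap the quizartinib cultures. WARS stays at 101 to 157 CPM under quizartinib in hBMSC-CM.

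Adding everolimus to quizartinib asked whether mTORC1 inhibition lowers what remained in hBMSC-CM. The combo called 0 of 39 members against quizartinib in hBMSC-CM by edgeR, where 0.24% of all tested genes were called. Of the changes 32 of 39 were negative, and the median was -0.25 against 0.00 over all tested genes. An unadjusted p under 0.05 was seen in 8 members, and the share of all tested genes at that threshold is not given. Limma voom called 0 members and DESeq2 called 2, FARSB and FARSA. Either replicate block called 4 members, all lower: FARSB, FARSA, AIMP2 and EARS2. FARSB was at 27.3, 31 and 40.9 CPM with quizartinib and at 12.8, 15.1 and 18 CPM with the combo (log2 change -1.11, SE 0.27, adjusted p = 0.0728). FARSA was at 172, 219 and 236 CPM and at 97.8, 129 and 128 CPM (log2 change -0.82, SE 0.21, adjusted p = 0.105), and AIMP2 was at 39.4, 39.1 and 51.3 CPM and at 21.1, 26.4 and 33.2 CPM (log2 change -0.69, SE 0.19, adjusted p = 0.135). In these 3 genes all combo cultures were below all quizartinib cultures. The same held for members with larger p, such as NARS2 (-0.40, adjusted p = 0.819) and LARS (-0.49, adjusted p = 0.924).

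Among mitochondrial enzymes, EARS2 went from 12.2, 13.8 and 12 CPM to 5.49, 9.73 and 6.38 CPM (log2 change -0.81, SE 0.27, adjusted p = 0.327), with no overlap, and MARS2 from 8.67, 12.4 and 6.47 CPM to 3.61, 6.7 and 5.2 CPM, with overlap (log2 change -0.83, SE 0.31, adjusted p = 0.477). WARS was at 119.6, 143 and 88.8 CPM under the combo in hBMSC-CM (-0.13, adjusted p = 1.0), and the summed cytosolic level was 2008 ± 123 CPM against 2288 ± 8.35 CPM with quizartinib alone.

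In RPMI, no member passed the test between the combo and quizartinib alone. Calls numbered 0 of 39 by edgeR, limma voom and DESeq2, 0 members had an unadjusted p under 0.05, and 0.00773% of all tested genes were called. The median change was -0.05, and changes ranged from -0.46 to 0.56. The summed cytosolic level was 1814 ± 166 CPM with the combo and 1856 ± 162.5 CPM with quizartinib, and FARSB was at 16.1, 14.9 and 15.9 CPM with the combo.

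Everolimus alone in hBMSC-CM called 0 of 39 members against vehicle by edgeR, where 0.41% of all tested genes were called. The median was -0.31 against -0.02 over all tested genes. At an unadjusted p under 0.05 there were 10 members, with no share of all tested genes to set beside them. Limma voom called 1 member (YARS) and DESeq2 called 2 (YARS and GARS). The replicate block called 3, all lower (YARS, GARS and MARS), and the block within fraction called 7 lower and 1 higher, the latter HARS2. YARS was at 216, 211 and 252 CPM with vehicle and at 146, 145 and 148 CPM with everolimus (log2 change -0.63, SE 0.16, adjusted p = 0.0567), and GARS was at 189, 181 and 220.4 CPM and at 120.3, 120.2 and 119.6 CPM (log2 change -0.71, SE 0.21, adjusted p = 0.126). MARS was at 183, 149.5 and 156 CPM and at 97.7, 86.7 and 91.7 CPM (log2 change -0.82, SE 0.27, adjusted p = 0.206). Vehicle and everolimus cultures lay apart in these 3 genes. They also lay apart in members with far larger p, such as LARS (-0.25, adjusted p = 0.903) and QARS, which went the other way (0.23, adjusted p = 0.888). The mitochondrial genes with the smallest p were RARS2, the arginine enzyme (-0.54, adjusted p = 0.186), and HARS2 (0.52, adjusted p = 0.23), which was at 31.7, 34.4 and 32.9 CPM. The summed cytosolic level was 2703 ± 62.3 CPM. Of the stress response genes, PSAT1 and CHAC1 were lower.

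**Figure D4:**
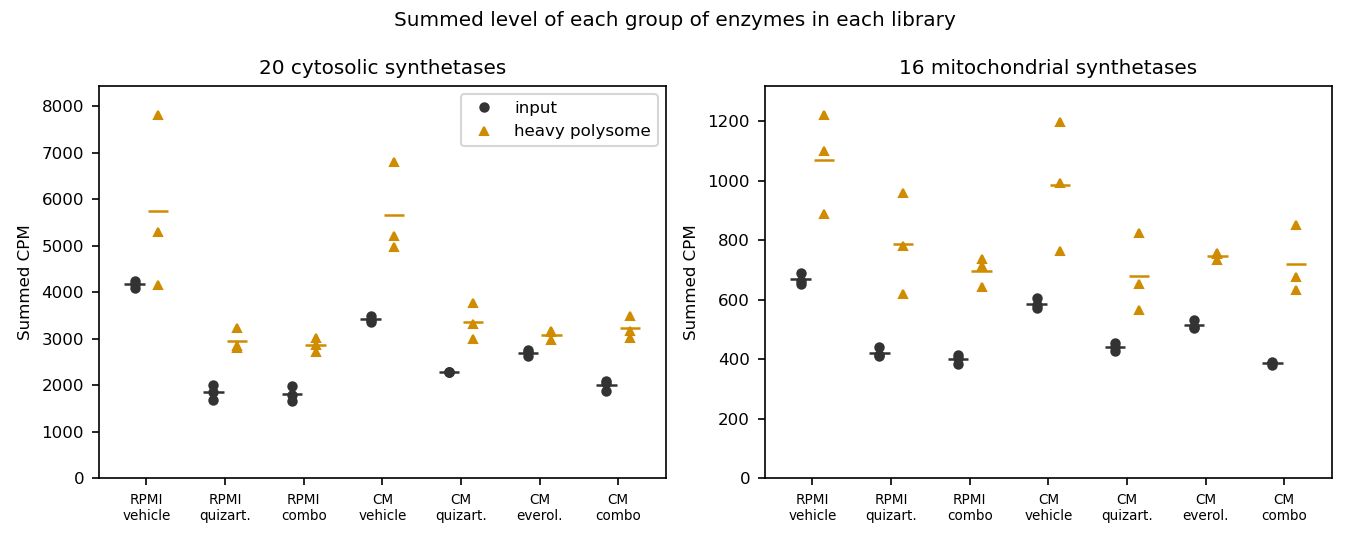
Summed CPM of the 20 cytosolic enzymes (left) and of the 16 mitochondrial enzymes (right) in each input (circles) and heavy polysome (triangles) library of the 7 groups, with bars at the means of 3 cultures and vertical axes from 0. Input sums fall from 4174 to 1856 CPM (cytosolic) and from 669 to 422 CPM (mitochondrial) under quizartinib in RPMI. Heavy polysome sums spread more within a group.

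Heavy polysome libraries were then read for whether ribosome-loaded messages followed the input. Their levels are shares of the RNA in a fraction, so a loss of ribosome loading common to all messages does not show here. The study reports that quizartinib lowered RNA yields more in heavy polysomes than in input. Summed cytosolic levels in heavy polysomes were 5760 ± 1866 CPM with vehicle and 2957 ± 232 CPM with quizartinib in RPMI, and 5662 ± 1000 and 3362 ± 383 CPM in hBMSC-CM, with SDs far larger than those of the inputs under vehicle. The change in heavy polysomes beyond the change in input was tested as an interaction. It called 0 of 39 members in each of the 8 comparisons by edgeR, limma voom and DESeq2, where 1.55% of all tested genes were called for quizartinib in RPMI (0.278% higher and 1.28% lower) and 0% in the other 7. For quizartinib in RPMI this count became 2 higher with the replicate block (GARS and IARS) and 8 higher with the block within fraction (also EPRS, LARS, NARS, TARS, IARS2 and YARS2), while a block for each culture gave 0, and in the other 7 comparisons every block gave 0.

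Quizartinib in RPMI came closest, on this scale of shares. There 32 of 39 values were above 0, and the median was 0.43 against 0.15 over all tested genes. At an unadjusted p under 0.05 there were 12 members, again without a share of all tested genes. GARS was at 77.8, 79.1 and 89.9 CPM in heavy polysomes with vehicle and at 42.2, 40.9 and 81.5 CPM with quizartinib (log2 change 1.0, SE 0.29, adjusted p = 0.0769 for the interaction). IARS was at 102, 60.4 and 58.7 CPM and at 42.1, 26.6 and 39.1 CPM (log2 change 1.21, SE 0.40, adjusted p = 0.119). The heavy polysome groups of GARS overlapped, through culture 3 of quizartinib, and those of IARS lay apart, as the input groups of both genes did. Scaling by library size only shifts all genes by a median of 0.24 in this interaction and the members' median to 0.65, with 0 members called.

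In the other comparisons the members with the smallest p in the interaction were HARS2 and GARS for quizartinib in hBMSC-CM (-0.44 and 0.44), HARS2 and EEF1E1 for the medium without drug (0.45 and -0.94), HARS2 and MARS2 for the medium under quizartinib (-0.52 and -0.87), and MARS2 and KARS for the combo in hBMSC-CM (1.02 and 0.34). They were CARS and SARS2 for the combo in RPMI (0.30 and -0.71), FARSA and VARS for everolimus (-0.82 and -0.91), and HARS2 and IARS for the difference between media (-0.97 and -1.26). All had adjusted p values of 0.931 or more. HARS2 recurred in 4 of these 7 comparisons, which share cultures and so are not separate observations. Its heavy polysome levels were 33.4, 26.3 and 34.5 CPM with vehicle and 57.7, 44.8 and 59.7 CPM with quizartinib in RPMI. In hBMSC-CM they were 35.2, 36.1 and 38 CPM with vehicle and 37.4, 36.9 and 45.4 CPM with quizartinib. FARSA was at 1421, 1410.4 and 934 CPM with vehicle and at 495, 488 and 483 CPM with everolimus in hBMSC-CM heavy polysomes, and VARS was at 1463, 752 and 764 CPM and at 432, 408 and 398 CPM. In both genes all everolimus cultures lay below all vehicle cultures, as they did in input. The numbers of members with an unadjusted p under 0.05 were 0, 0, 1, 1, 0, 4 and 3 in this order.

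Within vehicle cultures, the level in heavy polysomes relative to input went in both directions among the members, as it did among all tested genes. In RPMI 17 of 39 were higher in heavy polysomes than in input and 11 were lower, where 65.4% of all tested genes were called (31.5% higher and 33.9% lower), and in hBMSC-CM 21 were higher and 10 were lower, where 63.6% of all tested genes were called (29.6% higher and 34% lower). Scaling by library size only shifts these changes by a median of -0.56 in RPMI and -0.52 in hBMSC-CM, which turns the split into 10 higher and 16 lower in RPMI and 13 higher and 13 lower in hBMSC-CM, with no called member changing sign. The block within fraction gave 20 higher and 12 lower in RPMI and 21 higher and 11 lower in hBMSC-CM. Without culture 1 of vehicle, hBMSC-CM gave 18 higher and 5 lower, and without its culture 2 it gave 20 higher and 7 lower. Directions below are therefore relative to the scaling of the libraries.

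The mitochondrial enzymes were mostly on the higher side, with 9 higher and 1 lower of 16 in RPMI (median log2 change 0.78) and 10 higher and 1 lower in hBMSC-CM (median 0.96). The cytosolic enzymes split, with 7 higher and 9 lower of 20 in RPMI and 10 higher and 7 lower in hBMSC-CM. YARS was at 276, 267 and 277 CPM in RPMI input and at 697, 639.7 and 575 CPM in heavy polysomes (log2 change 1.22, SE 0.16, adjusted p = 1.02e-07), and FARSA, at 344, 455 and 462 CPM in input and 1639, 1341 and 698 CPM in heavy polysomes, was also higher (log2 change 1.54, SE 0.22, adjusted p = 3.93e-07). GARS was lower, at 265, 228 and 254 CPM in input and 77.8, 79.1 and 89.9 CPM in heavy polysomes (log2 change -1.6, SE 0.21, adjusted p = 1.48e-07), as was EPRS, at 249, 209 and 226 CPM and 56.8, 90.9 and 90.4 CPM (log2 change -1.52, SE 0.29, adjusted p = 3.26e-05). In these 4 genes the fractions did not overlap.

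Subunits and partners did not share a direction. FARSB was lower in heavy polysomes (log2 change -1.24, SE 0.27, adjusted p = 0.000179) where its partner FARSA was higher. Of the scaffold genes, AIMP2 was higher (log2 change 1.2, SE 0.19, adjusted p = 2.88e-06) and AIMP1 was lower (log2 change -1.44, SE 0.28, adjusted p = 4e-05), and EEF1E1 was lower in hBMSC-CM (log2 change -1.42, SE 0.41, adjusted p = 0.00353) but not called in RPMI (-0.47). KARS was not called in either medium (-0.12 and 0.16), QARS (0.88) and WARS (0.94) were higher, and AARS was called in hBMSC-CM (0.98) and not in RPMI (0.66).

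The change between fractions ran with the base composition of the message. Over the 39 members, the log2 change and the GC content of the canonical transcript had a Pearson correlation of 0.832 in RPMI and 0.869 in hBMSC-CM (Spearman 0.816 and 0.835), and over the 11633 tested genes with a transcript in the annotation (89.9%) the Pearson values were 0.701 and 0.681. AIMP1, with the lowest GC content of the members (35.2%), was among the lowest in heavy polysomes, and FARSA (61.3%) and SARS2 (61.4%) were among the highest, although the fractions of SARS2, the member with the lowest level, overlapped. GARS (47.1%) lay lower than KARS (47.3%), its nearest member in composition. The quizartinib change in RPMI input showed no such relation (Pearson 0.03 over the members). These are descriptions across genes, which are not independent, and all share the same libraries. The part of base composition in the change between fractions was not tested.

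**Figure D5:**
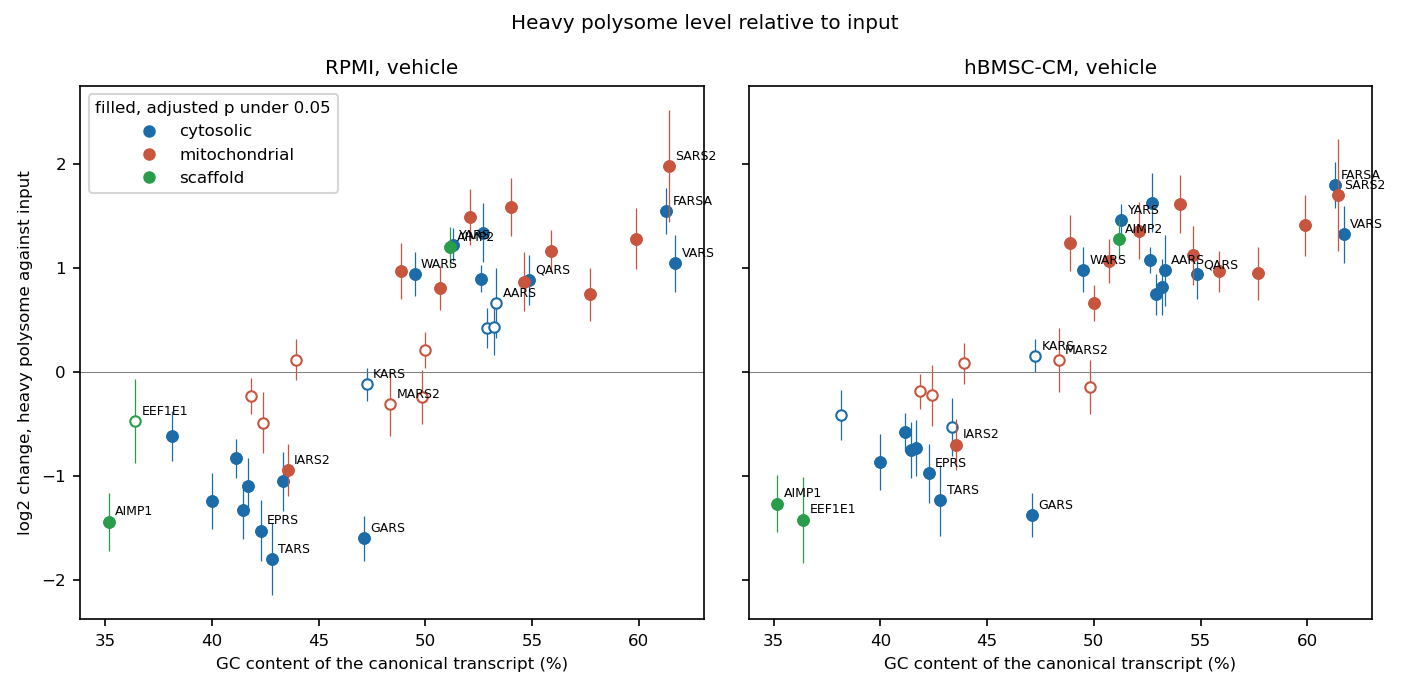
Log2 change of heavy polysome against input under vehicle (vertical axis) against the GC content of the canonical transcript in percent (horizontal axis) for the 39 members in RPMI (left) and hBMSC-CM (right), with bars for 1 SE and filled points for members called. Points rise from AIMP1 (35.2% GC) to FARSA (61.3% GC), with GARS (47.1% GC) below its neighbors.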

How the data were processed

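Poly(A) libraries were sequenced from whole lysate and from heavy polysomes of MOLM-13 cells. The authors trimmed reads with BBDuk, aligned them with STAR 2.6.0a to hg38 and deposited whole-number counts per gene for 42 libraries. Whether counting used strand is not given in the sources used here. Of 58884 rows, 25133 held no count, and rows of the 150 names with several rows were summed. Genes with a mean of at least 1 count and 1 CPM were tested (12939 genes, 99.768% of counts). Library totals were 19.4 M to 38.8 M counts, and the common biological coefficient of variation was 0.279.

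Counts were scaled by TMM and fitted in edgeR 4.0.16 (R 4.3.3) with the quasi-likelihood test, robust dispersions and 14 group means over all 42 libraries, and p-values were adjusted by Benjamini-Hochberg over all tested genes in each of 18 comparisons, with a threshold of 0.05. Tests were two-sided. CPM per kilobase divides by coding length. Heavy polysome changes beyond input were interaction terms. The fit was tested on simulated data. Alternatives were limma voom (3.58.1), DESeq2 (1.42.0), library size scaling, no filter (33530 genes), a stricter filter of at least 10 CPM (8522 genes), replicate blocks, only the groups compared, and each culture left out. With 3 cultures against 3, an exact permutation test of one gene cannot go below p = 0.1, so none was used.

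The members and lists were chosen with earlier results of these data known. Values are given for members with the smallest p in each comparison (in heavy polysomes relative to input mostly as fitted changes), for AARS, EPRS, KARS, QARS, WARS and the scaffold genes, and for a few genes singled out after their values were seen (HARS, HARS2, CARS2, MARS2 and EARS2 in comparisons where they were not among the smallest p). Gene positions came from GENCODE v44 (GRCh38), and promoters from RefSeq (GRCh38.p14). Replicate numbers were not used in the tests, and fits with the number as a block are given beside the results they change. Values of some genes outside the members are not reported here.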

Additional observations from a re-analysis of the deposited data

Results flagged for a closer look

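For 5 members the effect of quizartinib on input RNA differed between hBMSC-CM and RPMI in a direct test of that difference (edgeR quasi-likelihood test). The log2 differences, hBMSC-CM minus RPMI, were 2.07 for MARS2, 1.26 for AIMP2, 1.30 for FARSA, 1.5 for VARS and 1.40 for FARSB. All 5 were positive in 3 of 3 sets of cultures with the same number, as was the difference of the uncalled EPRS. MARS2 was the lowest of the 5 in level, at 1.94 to 24.7 CPM over the 4 groups concerned. In hBMSC-CM its vehicle cultures were at 15, 13.6 and 7.3 CPM, so culture 3 lay below the other two. The cause of the differences was not tested.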

How the results depend on the processing

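Counts of called members kept within 1.5 times their value for 242 pairs of a comparison and a setting and moved beyond it for 26. With no filter, calls for quizartinib in hBMSC-CM fell from 15 to 9, and without single cultures they were 7 to 14 (7, 9 and 8 without quizartinib culture 1, quizartinib culture 2 and vehicle culture 3). For the combo in hBMSC-CM, 0 became 2 with DESeq2 and 1 with no filter, and was 0 to 2 without single cultures (2 without quizartinib culture 1). For everolimus, 0 became 1 with limma voom, 2 with DESeq2, 1 with the stricter filter and 2 with only the groups compared. The difference between media gave 3 calls in place of 5 with the stricter filter and 3 to 5 without single cultures (3 without culture 3 of quizartinib or culture 2 of vehicle in either medium). The cause was not tested.

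Whether a replicate number marks cultures run together is not settled: 45 of 63 same-number input pairs and 46 of 63 polysome pairs, not all, had a correlation of deviations over 0.1 (medians 0.412 and 0.444), and 36 of 42 libraries were closest to their own number. With the replicate block, calls were 2 for quizartinib in RPMI polysomes relative to input (GARS and IARS), 4 for the combo in hBMSC-CM, 3 for everolimus and 8 for the difference between media. With the replicate block within fraction they were 8, 4, 8 and 12, and 1 and 15 for the medium without drug and under quizartinib in input. No called value changed sign under any setting run. Of single-gene values, 114 lost and 125 gained a call, and 10141 did not. With 3 cultures a group and a common coefficient of variation of 0.279, an uncalled member is not shown to be unchanged.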
